A study of Mus musculus with 10 samples.

Results

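CEBPB(V285A) and CREB1(A297V) were compared on CpG-methylated DNA. Each protein was measured on 2 protein binding microarrays, so the comparison used 4 of the 10 arrays of the series, chosen by their titles. CEBPB and CREB1 are transcription factors of the basic leucine zipper (bZIP) family. The proteins were GST-tagged bZIP DNA-binding domains, listed under mouse, and each carried a single substitution, valine to alanine in CEBPB(V285A) and alanine to valine in CREB1(A297V). They were made from 180 ng of plasmid in a cell-free transcription and translation reaction and bound to double-stranded 44K Agilent arrays that M.SssI, a bacterial CpG methyltransferase, had methylated for 3 h. Wild-type CREB1 was used here only on unmethylated DNA, and no wild-type protein on methylated DNA was analysed here. The extent of methylation on the arrays was not checked here. The question was which sequences one mutant bound more than the other on methylated DNA.

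bZIP proteins bind DNA as dimers, and the basic region of each partner reads one half-site of a short, often palindromic, site. Homodimers of CREB1 are known for the cAMP response element (CRE), made of 2 TGAC half-sites, and C/EBP proteins for sites made of TTGC half-sites. PAR-domain bZIP proteins are known for sites made of TTAC half-sites. When any of these half-sites is joined to its partner head to head, the centre is a CpG, and M.SssI converts the cytosine of that CpG to 5-methylcytosine on both strands.

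The 6 dimers of these half-sites carry most of what follows, with a CpG in the centre of each. An 8-mer was read on both strands, so that each stands also for its reverse complement.
CRE/CRE: TGACGTCA
CRE/C/EBP: TGACGCAA
CRE/PAR: TGACGTAA
C/EBP/C/EBP: TTGCGCAA
C/EBP/PAR: TTGCGTAA
PAR/PAR: TTACGTAA

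The following probes are shown because they had the largest differences between the mutants in each direction, or had the highest mean log2 signal for both. Each is the 35-base variable part of a probe, and the capitals mark the 8-mer with the highest score in it.
Largest for CEBPB(V285A): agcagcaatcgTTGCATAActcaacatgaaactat
Next for CEBPB(V285A): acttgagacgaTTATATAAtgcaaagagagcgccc
Then for CEBPB(V285A): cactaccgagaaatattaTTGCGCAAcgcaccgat
Largest for CREB1(A297V): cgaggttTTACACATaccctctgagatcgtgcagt
Next for CREB1(A297V): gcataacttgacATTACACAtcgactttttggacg
Then for CREB1(A297V): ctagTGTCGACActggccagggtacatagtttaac
Highest signal for both: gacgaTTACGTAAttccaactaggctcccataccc

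The arrays themselves differed between the proteins. Median probe signal was 345 and 357 units on the CEBPB(V285A) arrays and 722 and 642 on the CREB1(A297V) arrays, which is 2.78 and 2.25 times the local background against 5.09 and 5.03 times. The numbers of probes below background were 221 and 1543 for CEBPB(V285A), against 3 and 6 for CREB1(A297V). The spread of the 8-mer values was also wider for CEBPB(V285A), with log2 scales of 0.253 and 0.265 against 0.199 and 0.197. Values are therefore given mainly as Z-scores, the distance of an 8-mer from the array's median 8-mer in units of that scale. Each 8-mer rested on 15 to 42 probes, and overlapping 8-mers share probes. The labels do not say that the 2 arrays of a protein used protein made separately, so the p-values here reflect only how much these arrays varied, possibly for technical reasons. Protein and the array it was hybridised on cannot be told apart.

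The replicate arrays resembled each other more than the proteins did. Over all 32896 8-mers, Pearson's r was 0.973 between the CEBPB(V285A) arrays and 0.966 between the CREB1(A297V) arrays. Across the proteins it was 0.810 to 0.845 for the array pairs. These are descriptions across 8-mers, which are not independent. Where either mutant reached a mean Z of 3 or more, which 1472 8-mers did, r between the proteins was 0.458. These 8-mers were chosen by the same scores, which by itself lowers r, so nothing on their order is concluded from it. Of the 100 strongest 8-mers of each mutant, 44 were the same, while replicates of one protein shared 89 and 82.

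**Figure D1:**
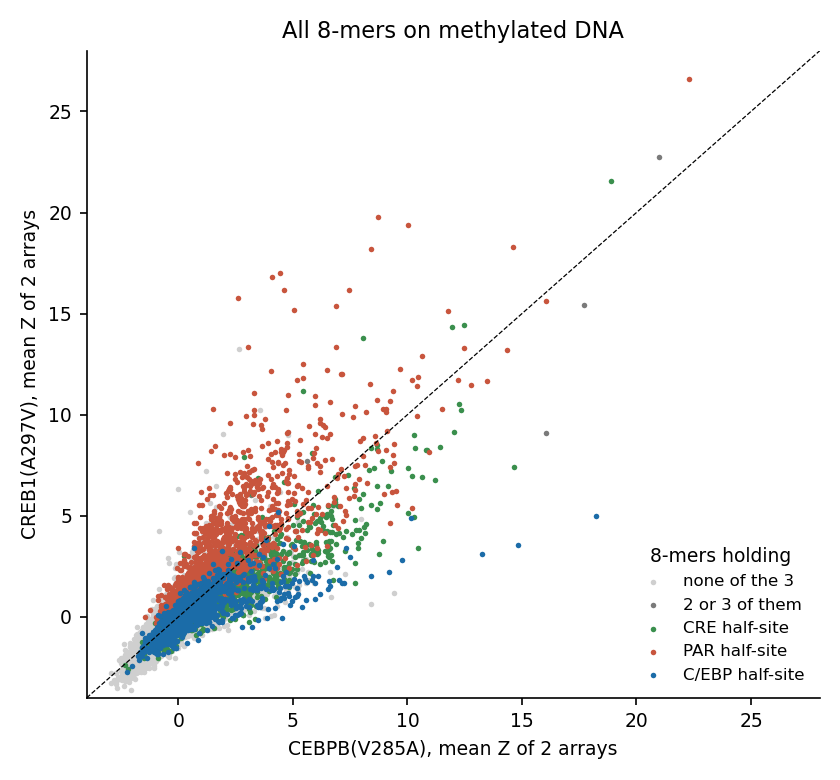
Mean Z-score of every 8-mer on methylated DNA for CEBPB(V285A) (x axis) and CREB1(A297V) (y axis), 1 point for each of the 32896 8-mers, coloured by the half-site it holds, with the line of equality dashed. PAR half-site 8-mers lie mostly above the line and C/EBP half-site 8-mers mostly below it, while PAR/PAR, at 22.3 and 26.6, is far along both axes.

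At an adjusted p below 0.05 (limma, Benjamini-Hochberg over all 8-mers), 4078 8-mers differed between the mutants, 12.4% of those tested. Of these, 2253 (6.85%) had the higher score for CEBPB(V285A) and 1825 (5.55%) for CREB1(A297V). Their half-sites were counted. The PAR half-site, which 3.89% of all 8-mers hold, was in 645 of the calls higher for CREB1(A297V) (35.3%) and in 28 of those higher for CEBPB(V285A) (1.24%). The C/EBP half-site, held by 3.82% of all 8-mers, was in 15 (0.822%) and 274 (12.2%). The CRE half-site, held by 3.89%, was in 15 (0.822%) and 230 (10.2%). None of the 3 was held by 63.1% of the calls higher for CREB1(A297V) and 76.4% of those higher for CEBPB(V285A), against 88.4% of all 8-mers. With normexp background correction 3329 8-mers were called, of which 68.1% were higher for CEBPB(V285A) against 55.2% in the main analysis, and leaving out CREB1(A297V) array 1 gave 1865 calls, 42.1% of them higher for CEBPB(V285A). Without 1 array, each of the 4 in turn, 1143 to 1865 calls were left, 648 to 852 of them higher for CEBPB(V285A) and 495 to 1080 higher for CREB1(A297V). With 2 against 2 arrays an exact two-sided permutation test cannot go below 0.333, so the limma fit, which shares the spread over all 8-mers and arrays, was used.

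Of the 6 half-site dimers, the C/EBP palindrome was the only one called different. TTGCGCAA had Z-scores of 18.6 and 17.9 on the CEBPB(V285A) arrays and 4.61 and 5.37 on the CREB1(A297V) arrays. Both CEBPB(V285A) arrays were high and the groups were far apart. The difference was 13.2 ± 1.74 (SE, n = 2 and 2; limma adjusted p = 4.69e-05), and the 8-mer stood 26.4-fold over the median 8-mer for CEBPB(V285A) against 1.98-fold. The authors' deposited Z-scores, on a wider scale, were 121 and 145 against 7.64 and 7.47.

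The CRE was bound strongly by both mutants. TGACGTCA, the palindrome that CREB1 is named for, had Z-scores of 19.1 and 18.6 for CEBPB(V285A) and 21.3 and 21.9 for CREB1(A297V). The arrays of each protein lay close together and the groups did not overlap, as at 63.8% of all 8-mers. The difference of -2.68 ± 2.49 (SE) was not called (limma adjusted p = 0.533). Over the median 8-mer the order was opposite, 29.6-fold for CEBPB(V285A) and 19.3-fold for CREB1(A297V), because the Z-score divides by a scale that was larger for CEBPB(V285A).

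PAR/PAR was the strongest 8-mer of both mutants. TTACGTAA scored 23.9 and 20.7 for CEBPB(V285A) and 24.8 and 28.4 for CREB1(A297V), a difference of -4.32 ± 2.61 (SE; limma adjusted p = 0.304). Both CREB1(A297V) arrays were higher, the lower of them by less than replicates of one protein differed. Its fold over the median 8-mer was 54.3 and 38.6, again in the other order.

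The dimers of unlike half-sites separated the mutants less than the C/EBP palindrome did. The CRE/C/EBP chimera TGACGCAA scored 16.2 and 15.8 for CEBPB(V285A) and 8.86 and 9.29 for CREB1(A297V). All the CEBPB(V285A) values were higher, and the 8-mer stood 17.8-fold over the median 8-mer for CEBPB(V285A) against 3.47-fold. The SDs of the 2 arrays were 0.265 and 0.306 on methylated DNA. On unmethylated DNA, also in the fit, they were 0.343 for CEBPB(V285A), 2.56 for CREB1(A297V) and 3.49 for wild-type CREB1. The difference of 6.96 ± 2.56 (SE) was not called (limma adjusted p = 0.0806), but it was called under 7 of the 15 alternatives. The CRE/PAR chimera TGACGTAA, at 21.9 and 20.1 against 20.7 and 24.9, overlapped between the groups (difference -1.77 ± 2.71 SE; limma adjusted p = 0.726). Its direction depended on the scale. It was 43.1-fold over the median 8-mer for CEBPB(V285A) against 22.7-fold, and the deposited Z-scores gave a called difference of the opposite sign, 115. C/EBP/PAR, TTGCGTAA, scored 18.2 and 17.3 against 14.4 and 16.5, with no overlap between the groups, as at 63.8% of all 8-mers. It was not called (difference 2.28 ± 2.48 SE, limma adjusted p = 0.602).

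For CREB1(A297V), then, the C/EBP half-site paired with itself scored 4.99, with CRE 9.07 and with PAR 15.4 on average over 2 arrays. In the CEBPB(V285A) arrays the same 3 dimers scored 18.2, 16 and 17.7.

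**Figure D2:**
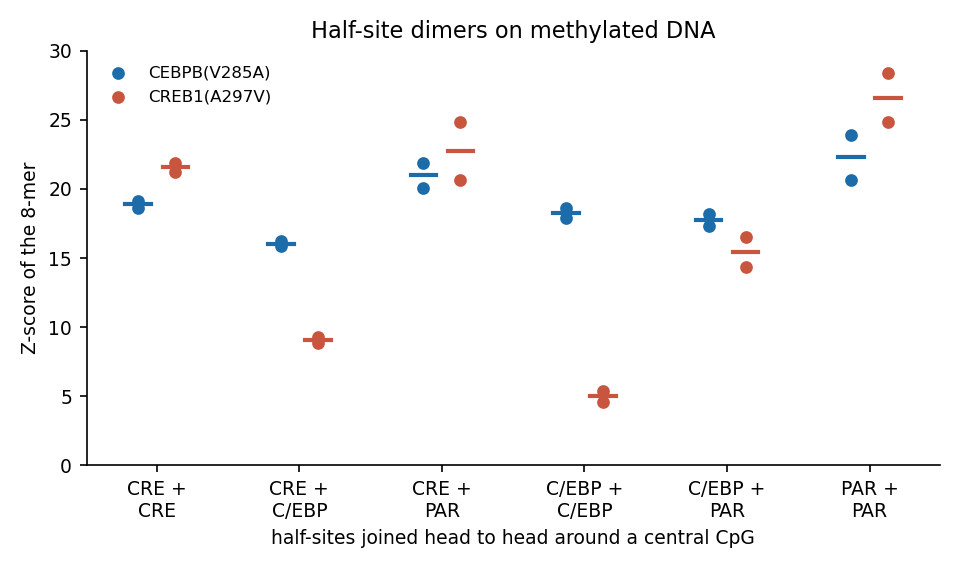
Z-scores of the 6 half-site dimers on methylated DNA. Each point is 1 array and each bar the mean of the 2 arrays of CEBPB(V285A) or CREB1(A297V). CEBPB(V285A) means lie between 16 and 22.3 for all 6 dimers, while CREB1(A297V) means run from 4.99 for C/EBP with C/EBP to 26.6 for PAR with PAR.

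On unmethylated DNA the same proteins were measured on 2 arrays each, and the 2 of CREB1(A297V) stood apart. Their strongest 8-mer lay 2.79 and 2.68 log2 units over the median, against 4.93 to 6.05 on the 4 methylated arrays, with median signals 2.76 and 1.79 times the local background; the part of this in the values that follow was not tested. TTGCGCAA had mean Z-scores of 16.2 ± 0.875 (SD, n = 2) for CEBPB(V285A) and 2.12 ± 1.47 (SD, n = 2) for CREB1(A297V), and TGACGTCA had 23.2 ± 0.111 and 14.5 ± 2.58. No dimer's difference was called different between methylated and unmethylated DNA; the lowest adjusted p of the 6 (limma interaction) was 0.0774, for TGACGTCA. Over all 8-mers 1019 were called in that interaction (3.1%), a count that fell to between 6 and 85 when 1 methylated array was left out.

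Replacing the central CpG by TG or CA leaves 1 half-site intact and no target of M.SssI within the 8 bases. The 3 such 8-mers that keep a C/EBP half-site were all called higher for CEBPB(V285A). TGATGCAA, the core of the composite C/EBP and ATF element, scored 13.5 and 13 for CEBPB(V285A) and 2.67 and 3.58 for CREB1(A297V), a difference of 10.1 ± 0.990 (SE; limma adjusted p = 1.8e-06). TTGCATAA scored 15.3 and 14.4 against 3.00 and 4.16, a difference of 11.3 ± 1.22 (SE; limma adjusted p = 6.11e-06). TTGTGCAA scored 7.06 and 6.11 against 1.41 and 2.15, a difference of 4.80 ± 0.407 (SE; limma adjusted p = 3.39e-07). In all 3 both CEBPB(V285A) arrays were far above both CREB1(A297V) arrays, and the fold over the median 8-mer was 10.8, 14.3 and 3.25 against 1.54, 1.63 and 1.28.

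Of the 3 that keep a CRE half-site, TGACACAA and TGACATAA were called higher for CEBPB(V285A) and TGATGTCA was not called. TGACACAA scored 6.59 and 6.26 against 3.10 and 3.47 (difference 3.14 ± 0.469 SE; limma adjusted p = 0.000184). TGACATAA scored 15.1 and 14.3 against 7.04 and 7.81 (difference 7.24 ± 1.93 SE; limma adjusted p = 0.0182), a call lost on removal of any single array of the 4 (adjusted p up to 0.146). The 3 that keep a PAR half-site, TGATGTAA and TTGTGTAA and TTATGTAA, were not called on the Z scale. TTATGTAA scored 16.8 and 15.3 against 14.0 and 17.2 and overlapped between the groups. TTGTGTAA, at 9.50 and 9.31 against 8.09 and 9.04, did not overlap, as was so for 63.8% of all 8-mers. The 4 that were not called depended on the scale. On the median-centred log2 score all 4 were called higher for CEBPB(V285A) (limma adjusted p = 0.000113 to 0.00391), as were TGATGTAA and TTATGTAA and TGATGTCA with the deposited Z-scores (differences of 41.8, 32.0 and 20.8) and TGATGTAA with normexp (3.75; adjusted p = 0.0367).

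The lists of all 8-mers that hold a half-site, split by the base after it, are described by their means and counts. After the CRE half-site, where a following guanine forms the CpG, the mean Z over 256 8-mers was 4.87 ± 0.152 (SD of 2 arrays) for CEBPB(V285A) and 3.06 ± 0.299 for CREB1(A297V). In this list 89 were called higher for CEBPB(V285A) and 1 for CREB1(A297V), 34.8% and 0.391% against 6.85% and 5.55% over all 8-mers. These counts were sensitive to the number of arrays: without 1 array, each of the 4 in turn, 12 to 22 were called higher for CEBPB(V285A) and 0 or 1 for CREB1(A297V). With another base in that position the mean difference was between 0.248 and 0.430, and 32, 42 and 20 of 256 were called higher for CEBPB(V285A) with adenine, cytosine and thymine, against 10, 0 and 1 for CREB1(A297V). The shares higher for CEBPB(V285A) were 12.5%, 16.4% and 7.81%, the last near the 6.85% over all 8-mers. Without 1 array those higher for CEBPB(V285A) were 5 to 10, 9 to 12 and 3 to 5. A mean Z of 3 or more was reached by 172 of the 256 with guanine for CEBPB(V285A) and by 105 for CREB1(A297V).

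The C/EBP half-site lists were higher for CEBPB(V285A) mainly before guanine and adenine. With guanine the mean Z over 256 8-mers was 2.01 ± 0.0897 (SD of 2 arrays) for CEBPB(V285A) and 0.623 ± 0.0630 for CREB1(A297V), with 131 called higher for CEBPB(V285A) and 2 for CREB1(A297V) (78 to 94 and 0 without 1 array). With adenine it was 1.62 ± 0.0818 and 0.836 ± 0.0528 over 234 8-mers, with 68 (29.1%) and 4 (1.71%) called (40 to 54 and 1 to 2 without 1 array). With cytosine 18 and 1 were called, and with thymine 6 and 5, shares of 7.03% and 0.391% and of 2.34% and 1.95%. These were near or below the 6.85% and 5.55% over all 8-mers.

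The PAR half-site lists ran the other way where the next base did not form a CpG with the half-site. With adenine the mean Z was 3.17 ± 0.0471 (SD of 2 arrays) for CEBPB(V285A) and 5.13 ± 0.660 for CREB1(A297V), with 5 called higher for CEBPB(V285A) and 156 of 256 for CREB1(A297V). With thymine the counts were 0 and 163 (63.7%), and with cytosine 5 (1.95%) and 127 (49.6%). Without 1 array, each of the 4 in turn, 78 to 145 with adenine, 95 to 149 with thymine and 43 to 99 with cytosine were called higher for CREB1(A297V). With normexp the mean difference with adenine was -0.976 in place of -1.95. The 2 CREB1(A297V) arrays differed from each other here, 4.66 and 5.59 with adenine, but both lay above the CEBPB(V285A) arrays at 3.21 and 3.14. On unmethylated DNA the mean differences were -1.18, -0.750 and -1.27 with adenine, cytosine and thymine and 1.63 with guanine, so a shift with guanine was seen there too. With guanine, which forms a CpG with the end of the half-site, the gap on methylated DNA narrowed to 4.53 ± 0.109 against 5.15 ± 0.624. Called were 17 (6.64%, near the share over all 8-mers) and 62 (24.2%), or 3 to 7 and 12 to 51 without 1 array. The sign of that mean difference, -0.618, turned with the deposited Z-scores (0.993), with normexp (0.221) and on the log2 scale (0.153), and it was -0.177 and -1.06 without CREB1(A297V) array 2 and array 1.

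**Figure D3:**
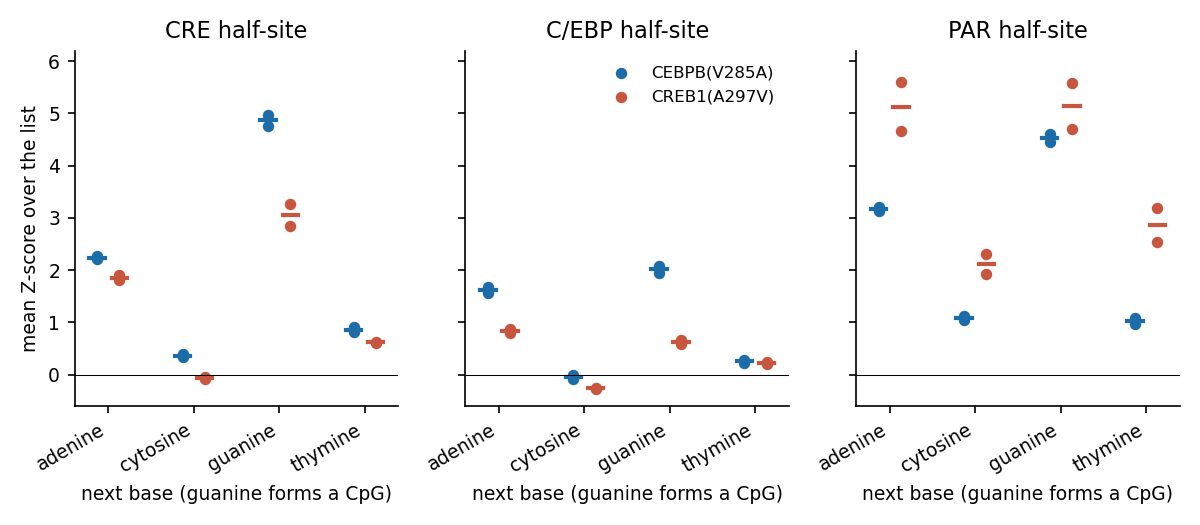
Mean Z-score over the 8-mers that hold a CRE, C/EBP or PAR half-site, by the base that follows it, on methylated DNA. Points are single arrays and bars the means of 2. CEBPB(V285A) lies above CREB1(A297V) for CRE and C/EBP half-sites followed by guanine, and CREB1(A297V) lies above it for PAR half-sites followed by adenine (5.13 against 3.17) or thymine (2.86 against 1.03).

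With a CpG fixed in the centre, every 4-base half-site could be ranked by its mean over the 64 8-mers that join it to another. For CEBPB(V285A) the order was TGAC at 5.13 ± 0.00862 (SD of 2 arrays), then TTAC at 4.98 ± 0.157, and then TTGC at 2.41. The first and second did not differ beyond their spread. For CREB1(A297V) the order was TTAC at 5.43 ± 0.720, then TGAC at 3.54 ± 0.195, while TTGC ranked 8 at 0.855. After these CREB1(A297V) had TTTC and then TGTC at 1.53 and 1.51, which hold T in place of the A of TTAC and TGAC. These ranked 17 and 12 for CEBPB(V285A), at 0.596 and 0.792. Of their 64 8-mers each, 18 and 9 were called higher for CREB1(A297V), while 0 and 2 went the other way. Over all 8-mers 5.55% and 6.85% were called in these directions.

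With all 16 central dinucleotides, the 6 dimer frames gave 78 distinct 8-mers, of which 31 were called higher for CEBPB(V285A) and 5 for CREB1(A297V) (26 to 27 and 3 to 6 without 1 array). Over all 8-mers 6.85% and 5.55% were called in these directions, so the 5 of 78 were near the share over all 8-mers. Higher for CEBPB(V285A) were 6 of 10 in the C/EBP/C/EBP frame, 7 of 16 in the CRE/C/EBP frame and 8 of 16 in the C/EBP/PAR frame, with 0 higher for CREB1(A297V) in these frames. The 5 that went the other way were in the PAR/PAR and CRE/PAR frames.

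In the PAR/PAR frame the mutants divided by centre. TTACCTAA, with CC in the centre, scored 8.19 and 9.23 for CEBPB(V285A) and 18.8 and 20.8 for CREB1(A297V), a difference of -11.1 ± 2.45 (SE; limma adjusted p = 0.0055), called without either CREB1(A297V) array but not without either CEBPB(V285A) array (adjusted p up to 0.13). TTAGCTAA was also higher for CREB1(A297V), at 3.26 and 3.88 against 9.23 and 11.2 (limma adjusted p = 3.8e-05), as was TTAAGTAA, with means of 5.95 ± 0.128 and 10.9 ± 1.41 (SD of 2 arrays). The A/T-only TTATATAA went the other way, at 10.2 and 8.62 against 0.812 and 1.56, a difference of 8.21 ± 0.593 (SE; limma adjusted p = 8.02e-08). TTAGATAA did so too, at 6.63 and 6.73 against 0.632 and 1.32 (difference 5.71 ± 0.369 SE; limma adjusted p = 2.4e-08). Thus an 8-mer with the same ends was favoured by one mutant or the other according to its 2 central bases. With normexp the 3 differences in favour of CREB1(A297V) kept their calls but shrank, to -4.43 for TTACCTAA, -3.47 for TTAGCTAA and -2.50 for TTAAGTAA, while TTATATAA and TTAGATAA stood at 7.13 and 5.02.

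The CRE/PAR frame showed the same division. TGAGGTAA had means of 6.50 ± 0.0694 (SD of 2 arrays) for CEBPB(V285A) and 12.2 ± 0.774 for CREB1(A297V), a difference of -5.70 ± 1.00 (SE; limma adjusted p = 0.000878). TGATATAA had 8.39 ± 0.288 and 0.620 ± 0.280, a difference of 7.77 ± 0.457 (SE; limma adjusted p = 8.56e-09). With normexp these were -2.55 and 6.48. A TA centre was called higher for CEBPB(V285A) in all 6 frames. In the CRE/CRE frame the call at TGATATCA (limma adjusted p = 0.0386) was lost on removal of any single array of the 4, and with signal over background, without the local median and with quantile normalization (0.0706, 0.255 and 0.114). In the C/EBP/C/EBP frame that at TTGTACAA was lost with signal over background and without the local median (0.113 and 0.0548).

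**Figure D4:**
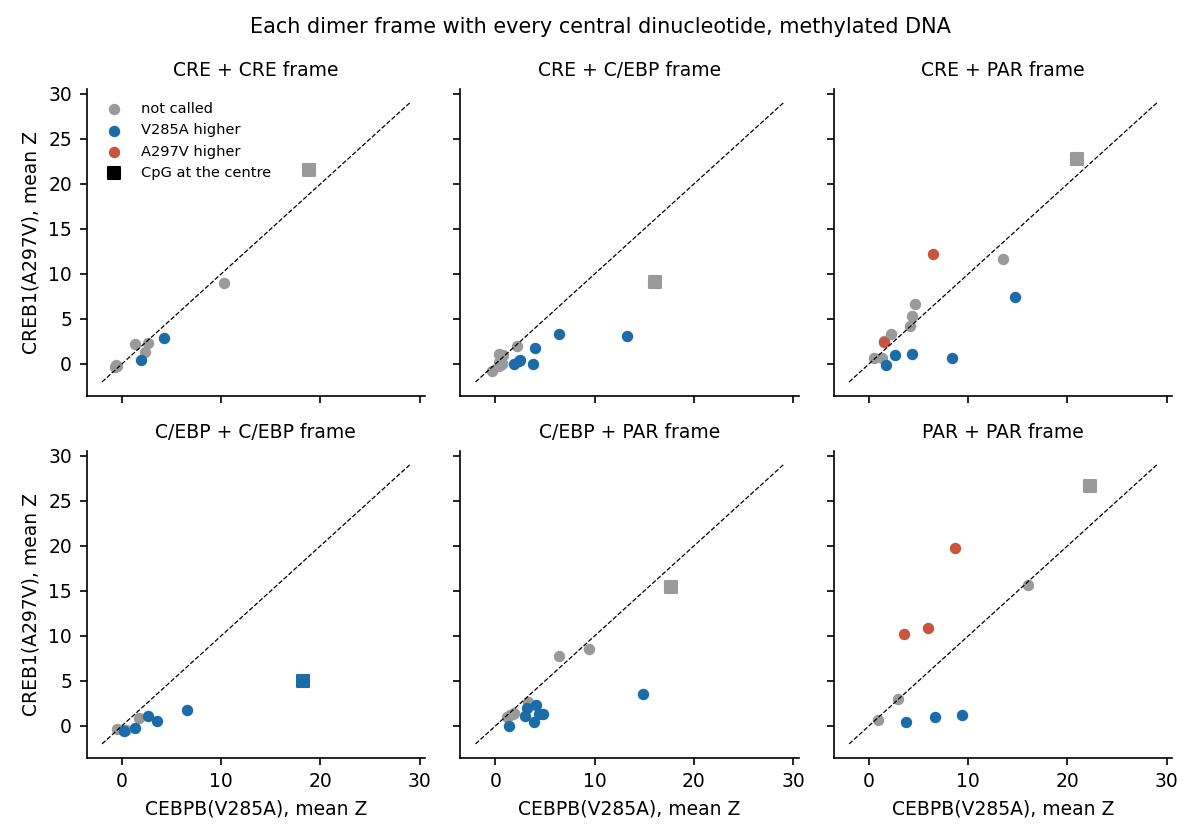
Mean Z-score of each 8-mer of the 6 dimer frames for CEBPB(V285A) (x axis) and CREB1(A297V) (y axis), 1 point for each central dinucleotide, coloured by the limma call at adjusted p below 0.05, with a square for the CpG centre and the line of equality dashed. Points higher for CREB1(A297V) occur in the CRE with PAR and PAR with PAR frames. Of all 78 8-mers 31 were called higher for CEBPB(V285A) and 5 for CREB1(A297V), where 6.85% and 5.55% of all 8-mers were.

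Single-base variants of each dimer were compared by how many still scored high. Of the 24 single-base variants of TGACGCAA, 19 reached a mean Z of 3 for CEBPB(V285A) and 7 for CREB1(A297V). For the 12 variants of TTGCGCAA the counts were 7 and 2, and for the 24 of TTGCGTAA they were 23 and 15. Around the PAR palindrome all 12 variants were at 3 or more for both mutants, and around TGACGTAA 24 and 22 of 24 were. The weakest variant of the PAR palindrome was TTCCGTAA for both, at 4.18 ± 0.352 (SD of 2 arrays) and 4.50 ± 0.841. For TTGCGCAA it was TTGGGCAA for both, at 0.165 ± 0.00991 and -0.570 ± 0.0801.

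Outside the dimer frames, the largest differences in favour of CEBPB(V285A) were at 8-mers that hold a C/EBP or CRE half-site followed by guanine. GATTGCGT scored 9.22 and 9.20 for CEBPB(V285A) and 1.89 and 2.52 for CREB1(A297V), a difference of 7.00 ± 0.795 (SE; limma adjusted p = 1.05e-05). GTGACGCG scored 11 and 9.94 against 4.09 and 2.75 (difference 7.04 ± 1.71 SE; limma adjusted p = 0.0105). CTGACGTC and AGATGACG, with differences of 5.67 ± 1.60 and 5.05 ± 1.18 (SE), were called as well (limma adjusted p = 0.0247 and 0.00812). The calls at GTGACGCG, CTGACGTC and AGATGACG were lost on removal of any single array of the 4, while that at GATTGCGT was kept. The call at CTGACGTC was also lost with the mean over probes (difference 3.11; adjusted p = 0.0523), and that at AGATGACG with the deposited Z-scores (adjusted p = 0.194). With the mean over probes AGATGACG differed by 3.02.

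The largest differences in favour of CREB1(A297V) outside the dimer frames were at 8-mers with 1 PAR half-site. TTACACAC scored 2.35 and 2.84 for CEBPB(V285A) and 14.4 and 17.1 for CREB1(A297V), a difference of -13.2 ± 1.11 (SE; limma adjusted p = 3.39e-07). ATTACAAA scored 3.87 and 4.98 against 15.8 and 18.2 (difference -12.6 ± 1.44 SE; limma adjusted p = 1.06e-05). ATTACTAA scored 4.36 and 4.83 against 15.4 and 16.9 (difference -11.6 ± 1.13 SE; limma adjusted p = 1.79e-06). These 8-mers were chosen for large called differences without overlap between the groups, so the separation of their arrays is no added evidence. CEBPB(V285A) bound these sequences 1.60- to 2.28-fold over the median 8-mer against 8.72- to 10.4-fold for CREB1(A297V). TTACTCAT differed by -10.3 ± 0.962 (SE; limma adjusted p = 1.04e-06). All 4 were still called with normexp, at smaller differences of -7.12, -6.78, -6.00 and -6.15, whereas TTGCGCAA and TTGCATAA, on the CEBPB(V285A) side, stood at 10.9 and 9.45. TTACACAC and ATTACAAA stood at -8.69 and -8.05 with the mean over probes, and TTACCTAA at -6.76.

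TGTCGACA and ATTTCACA hold none of the 3 half-sites and still favoured CREB1(A297V). TGTCGACA, a palindrome of the TGTC half-site around a CpG, scored 2.53 and 2.79 against 11.7 and 14.9 (difference -10.6 ± 1.27 SE; limma adjusted p = 1.78e-05). ATTTCACA scored 1.78 and 2.08 against 8.62 and 9.49 (difference -7.12 ± 0.557 SE; limma adjusted p = 1.38e-07). Also called were TTACGACA and ATTACACA and GTAATTAC, which differed by -9.34 ± 2.70, -9.79 ± 2.26 and -8.52 ± 1.78 (SE; limma adjusted p = 0.0286, 0.00735 and 0.00352). The call at TTACGACA, where the CREB1(A297V) arrays read 16.3 and 22.5, was kept without CREB1(A297V) array 1 and lost without any other array, and those at the other two 8-mers ended without either CEBPB(V285A) array. TTACGACA was also not called with normexp (-3.28; adjusted p = 0.228) or signal over background (-6.46; adjusted p = 0.0918). With normexp the other differences were -6.54 for TGTCGACA, -4.58 for ATTTCACA, -4.10 for ATTACACA and -4.15 for GTAATTAC.

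Calls were also counted by CpG content. Among the 20349 8-mers with no CpG, 1157 (5.69%) were called higher for CEBPB(V285A) and 1378 (6.77%) for CREB1(A297V). Over all 8-mers these shares were 6.85% and 5.55%, so those without a CpG were near them. Among the 10762 with 1 CpG the counts were 867 (8.06%) and 433 (4.02%), and among the 1702 with 2 they were 214 (12.6%) and 14 (0.823%). Among the 83 with 3 or more they were 15 (18.1%) and 0. Without 1 array, each of the 4 in turn, they were 369 to 496 and 417 to 835 with no CpG, 224 to 293 and 77 to 234 with 1, 46 to 70 and 1 to 11 with 2, and 2 to 5 and 0 with 3 or more. Mean Z differences were -0.0278, 0.153, 0.400 and 0.523 in that order, the first turning sign with normexp (0.0456), on the log2 score (0.00711) and without CREB1(A297V) array 2 (0.00224). Of the 100 strongest 8-mers, 79 held a CpG for CEBPB(V285A) and 48 for CREB1(A297V), against 38.1% of all 8-mers. The PAR half-site was in 49 and 85 of these, the CRE half-site in 42 and 12 and the C/EBP half-site in 9 and 2, against 3.89%, 3.89% and 3.82% of all 8-mers.

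Other cores were read from lists of their own. For the 8 AP-1 8-mers, the site of Fos and Jun dimers, the mean Z was 2.34 and 2.29, with 1 called higher for CEBPB(V285A), 12.5% against 6.85% over all 8-mers. For the 26 E-box 8-mers, read by basic helix-loop-helix proteins, 5 were higher for CEBPB(V285A) (19.2% against 6.85%) and 0 for CREB1(A297V), and 0 to 2 without 1 array. The 48 ETS 8-mers, a control core of another family, had mean Z-scores of -0.588 and -0.614, with 2 called higher for CEBPB(V285A), 4.17% and below the share over all 8-mers. The 48 8-mers with the composite C/EBP and ATF core TGATGC had 28 called higher for CEBPB(V285A) (58.3% against 6.85%) and 0 for CREB1(A297V), and 12 to 19 without 1 array.

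Single probes were compared as well. At an adjusted p below 0.05 (limma over all probes), 8465 of 40330 probes differed, 21.0% of them, and 4320 to 5563 without 1 array. The probe with TTGCATAA had signals of 26755 and 20045 for CEBPB(V285A) and 978 and 938 for CREB1(A297V), 77.6- and 56.1-fold against 1.35- and 1.46-fold over the array's median probe (limma adjusted p = 8.69e-06). The probe with TTACACAT had 1112 and 560 against 23182 and 22861 (limma adjusted p = 2.33e-05). The probe with the highest mean log2 signal over the 2 arrays of each protein, which holds the PAR palindrome, read 65528 and 52388 against 65528 and 65528. On CEBPB(V285A) array 2 another probe was brighter, at 64416. The value 65528 was the highest on any array, so where it was reached the signal is a lower bound. With normexp background correction 5566 probes were called, of which 68.6% were higher for CEBPB(V285A) against 53.0% in the main analysis.

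Probes that carry one dimer, each a different sequence around it, were counted next. Of the 17 probes with the C/EBP palindrome, 15 were called higher for CEBPB(V285A) and 0 lower, where 21.0% of all probes were called in either direction. Split by direction, the calls over all 40330 probes were 4487 with CEBPB(V285A) higher and 3978 with CREB1(A297V) higher. Of the 35 with CRE/C/EBP, 18 were higher for CEBPB(V285A) and 0 for CREB1(A297V), and of the 35 with C/EBP/PAR 11 and 3. None of the 19 CRE/CRE or the 33 CRE/PAR probes was called. Of the 18 with the PAR palindrome 1 was higher for CEBPB(V285A) and 7 for CREB1(A297V). Set against all probes called in the same direction, the 3 of 35 was near their share and the 1 of 18 below it.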

How the data were processed

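Protein binding microarray data of 10 arrays were used, 2 per group. The authors deposited, per the file headers, the median signal and median background intensity of each spot on a linear scale, not background-subtracted, and a table of Z-scores by 8-mer, a score whose computation is not given in the sources used here, nor are scanner settings. Here, the log2 median signal was reduced by the median of a 15 by 15 spot window, and probes were aligned by sequence, since on the methylated CREB1(A297V) arrays each lay 1 row away from its place on the others; the score of an 8-mer was the median over the probes that hold it on either strand (at least 8), centred and divided by 1.4826 times the median absolute deviation. Before centring and scaling, and returned from log2 to the linear scale, the 8-mer values were compared with the deposited scores. Pearson's r was 0.988 to 0.990 on the 4 methylated arrays, and 0.923 and 0.888 on the unmethylated CREB1(A297V) arrays. Spearman rank correlations, which do not depend on that scale, were 0.935 to 0.949, and 0.884 and 0.783. Fold over the median is 2 to the power of the centred log2 value, averaged over 2 arrays. Differences were fitted with limma 3.58.1 in R 4.3.3 on all 10 arrays, a coefficient per group (5 residual degrees of freedom), with a variance trend on the mean Z capped at 10, because without the cap the prior SD at the 4 8-mers above a mean Z of 16 was 5.18 to 14.0, against residual SDs of 1.60 to 2.62. Adjusted p is Benjamini-Hochberg, two-sided, called under 0.05. On simulated Z-scores over 32896 8-mers, planted differences of 1, 2, 4 and 8 were recovered in 18%, 78%, 100% and 100% of 50 each, and 7 unchanged 8-mers were called. The planted 8-mers were drawn at random and the noise was independent, so these rates do not describe the dimers. Differences at the 6 dimers had SEs of 1.74 to 2.71.

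The members and lists were chosen with earlier results of these data known. The 8-mers named are the 6 dimers with their TG and CA forms, the 10 strongest of each mutant and the 10 largest called differences in each direction, skipping any that shares 6 consecutive bases with one already taken. The largest differences were taken only from 8-mers whose arrays did not overlap between the groups. The grid of central dinucleotides and the ranking of half-sites were added after values were seen. Columns of other series numbered 0. Alternatives covered the deposited scores, background, local median, normalization, scale, summary, variance prior, arrays in the fit and each array left out. The replicate numbers did not pair the arrays of the 2 methylated groups (r = -0.00169).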

Additional observations from a re-analysis of the deposited data

Results flagged for a closer look

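Of the 33 named 8-mers, 5 had a difference between the mutants on methylated DNA that differed from that on unmethylated DNA (limma interaction). Over all 8-mers 1019 (3.1%) were called in it. All 5 are among the 8-mers chosen for the largest called differences on methylated DNA. That choice by itself favours a larger difference on methylated than on unmethylated DNA, so nothing is concluded from these calls. TTACACAC differed by -13.2 on methylated and -6.53 on unmethylated DNA, a change of -6.65 ± 1.58 (SE; adjusted p = 0.0305). ATTACTAA differed by -11.6 and -5.33, a change of -6.25 ± 1.60 (adjusted p = 0.0396), and TTACTCAT by -10.3 and -4.83, a change of -5.46 ± 1.36 (adjusted p = 0.0364). ATTTCACA differed by -7.12 and -4.17, a change of -2.95 ± 0.788 (adjusted p = 0.0468). These 4 were favoured by CREB1(A297V) on both kinds of DNA and hold no CpG. TTAGATAA was favoured by CEBPB(V285A) on both, by 5.71 and 3.26, a change of 2.45 ± 0.522 (adjusted p = 0.0209). It holds no CpG either, so M.SssI has no target within the 8 bases of any of the 5, though the probes around them may hold CpGs. The unmethylated CREB1(A297V) arrays stood apart, with their strongest 8-mer at 2.79 and 2.68 log2 units over the median against 4.93 and 5.61 on that protein's methylated arrays; its part in these changes was not tested. All 5 calls ended when any 1 of the 4 methylated arrays was left out.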

How the results depend on the processing

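All 4078 called 8-mers kept their direction under the alternatives except the deposited Z-scores (4061 kept), signal over background (4042), no local median (4070) and the mean over probes (3882, with 19 called the opposite way). The variance trend without its cap, no variance trend, only the 4 methylated arrays and a block for replicate number leave each difference unchanged. They alter only its SE, so direction was kept there by construction. The number called was 1955 with the deposited Z-scores, 1596 with signal over background, 1582 without the local median, 10058 on the median-centred log2 score, 11432 with the mean over probes and 8801 with only the 4 methylated arrays in the fit; leaving out 1 array gave 1143 to 1865. Probe calls were 5566 with normexp, 4425 without the local median and 4320 to 5563 with 1 array left out. Interaction calls were 434 with the deposited Z-scores, 2724 on the log2 score and 6 to 85 with 1 array left out. With replicate number as a replicate block, 4438 8-mers, 8428 probes and 1340 interactions were called; the numbers are shared by the arrays without pairing them. TGACGCAA was called with the deposited Z-scores (74.7), normexp (6.81), signal over background (7.48), quantile normalization (8.4), the log2 score (2.35), and, at 6.96, with no variance trend or only the 4 methylated arrays. TTGCGTAA was called with the deposited Z-scores (81.7), quantile normalization (5.18) and the log2 score (1.53). TGACGTAA reversed to a called 115 with the deposited Z-scores and 0.92 on the log2 score. Of the 23 named 8-mers called, 15 kept the call in all alternatives, and the sign of a list's mean turned in 14 of 300 comparisons, all of them in the lists of PAR followed by guanine, AP-1, ETS and no CpG. The 300 comparisons include the settings that leave each difference unchanged, where no sign could turn. The causes of the changed calls and signs were not tested. The number of arrays, 2 per group, limits the precision.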
